A study of Bos taurus with 129 samples.

Results

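FCGRT is the gene of the neonatal Fc receptor (FcRn), the receptor that binds IgG and albumin inside cells and returns them to the blood. Its row was taken by its symbol, 1 of 32395 genes counted in whole blood RNA-seq of commercial crossbred beef steers, and it was followed through all libraries by day, disease label, supplement and animal. The gene was picked for its pattern over these same libraries, so every level and difference of FCGRT below is a description and carries no test. Tests are given only for other genes.

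FcRn is a class I-like heavy chain that pairs with beta-2-microglobulin. Taken up with fluid, IgG and albumin bind FcRn in acidified endosomes, are sorted away from lysosomes and are released at the neutral pH of the cell surface. The receptor is best known for prolonging the life of IgG in plasma and for moving IgG across epithelia and endothelia, and in blood it is known from monocytes, macrophages and dendritic cells, where it also takes part in the handling of immune complexes.

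Whole blood was drawn into RNA-stabilising tubes from 26 steers at pen enrollment (day 0), which followed arrival at the facility. Further samples were drawn on days 13, 28, 45 and 60, so that each steer was followed through the study. The diet of INR steers carried Cu, Co, Mn and Zn as sulfates (4 healthy and 7 BRD animals). AAC steers were given an amino acid-complexed form of the same elements (4 healthy and 4 BRD), and COMBO steers the complexed form together with an oral trace mineral drench before shipment, at day 0 and with any treatment for illness (4 healthy and 3 BRD). BRD marks the 14 animals whose disease label is Yes, that is, animals diagnosed with or treated for bovine respiratory disease at some time during the 60 days, and healthy marks the 12 never so diagnosed; the day of diagnosis and the ages of the steers were not given in the sources used here. All 26 animals were bought from an order-buyer with unknown health history, were transported to the facility just before the study, received a viral vaccine and doramectin on day 0 and a second vaccination between the samplings of days 13 and 28, and were rotated among pens. There was no group that was not transported, vaccinated or dewormed, and every steer was given a supplemented diet in the pens. These events and the diet therefore cannot be told apart from time in the facility. The library of AAC healthy animal 48 on day 13 was removed by the authors.

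Library totals ran from 31613545 to 61692136 counts, with a median of 44268685, and FCGRT held between 1550 and 12443 of them, so that counting error was 2.54% at its lowest count and small beside the differences between animals. Levels are given as counts per 1000000 counts of the TMM-scaled library (CPM), and differences on the log2 CPM scale; CPM is not scaled to transcript length, so levels are compared within a gene. Blood markers were present in every library for B cells, T cells, monocytes and platelets, except GP1BA, listed at 0 in 8 libraries. These are bulk samples, in which fewer cells of a type and less RNA per cell cannot be told apart.

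FCGRT was highest on day 0 in 26 of 26 steers, and its mean on day 13 was less than 50% of the day 0 mean, after which it stayed near 60 CPM. On day 0 the 26 libraries ran from 79 CPM through a median of 140.4 to 328.9 CPM, with a mean of 146.8 ± 47.2 (SD). On day 13 the 25 libraries ran from 40.4 through a median of 61.5 to 108.04 CPM, with a mean of 61.5 ± 15.8. The means of the later days were 60.8 ± 13.05 on day 28 (42.6 to 99.7, n = 26), 65.1 ± 10.3 on day 45 (41.6 to 79, n = 26) and 59.6 ± 11.8 on day 60 (41.5 to 91.8, n = 26). Day 0 stood apart from the rest of the study, and the other 4 days lay within 1 SD of each other.

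The day 0 and later libraries did not separate fully across animals, although they did within each animal. Of the libraries of days 13 to 60, 9 were above the lowest day 0 library, that of COMBO BRD animal 18, and 3 day 0 libraries were at or below the highest later one, that of INR BRD animal 27 on day 13. The highest library, AAC BRD animal 21 on day 0 with 328.9 CPM, was well above the next, that of AAC BRD animal 31 with 199.2 CPM, and without it the day 0 mean was 139.5 ± 29.72 CPM (n = 25). The order of the day means was day 0, then 45, 13, 28 and 60, and no neighbours among the last 4 differed beyond their spread.

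**Figure D1:**
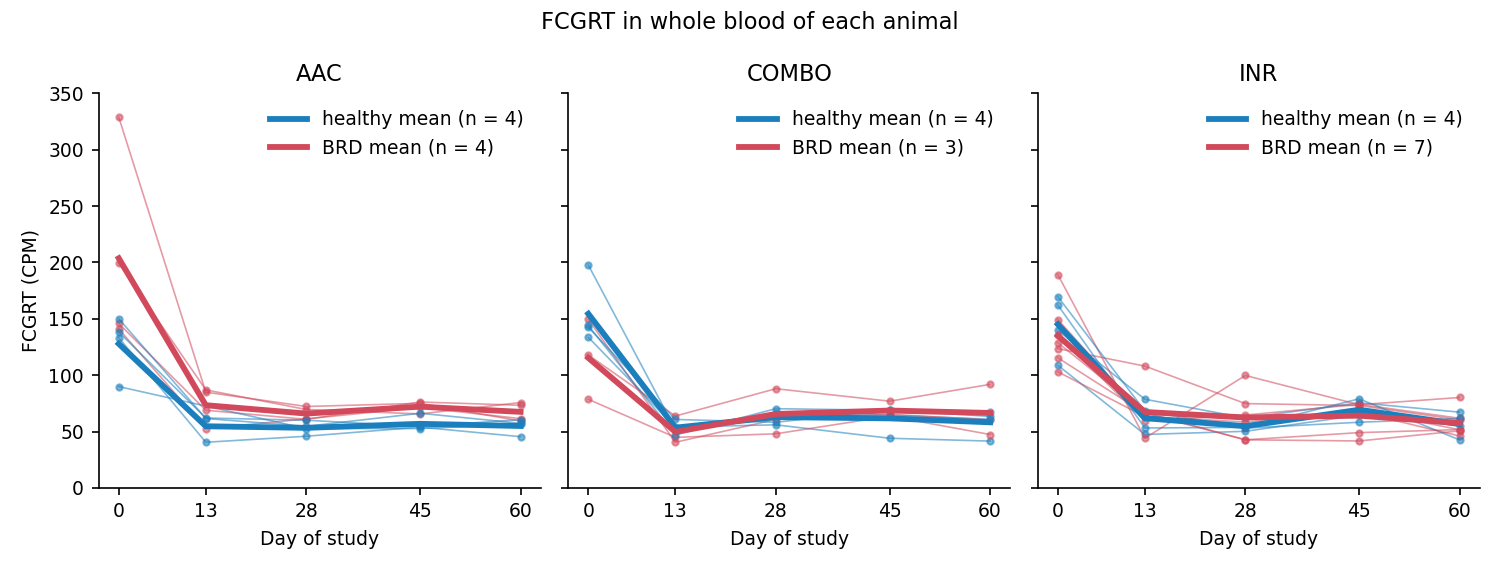
FCGRT in CPM (vertical axis) by day of study (horizontal axis) for each steer (thin lines and points) and as the mean of each disease label (thick lines), in a panel for each supplement; the line of AAC healthy animal 48 runs from day 0 to day 28 because its day 13 library was removed. Every line falls from day 0, from a mean of 146.8 CPM to between 59.6 and 65.1 CPM on the later days, and the lines of the disease labels overlap.

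Followed within animals, the log2 CPM of FCGRT changed by -1.26 ± 0.45 (SD, n = 25 animals) from day 0 to day 13, so that day 13 stood at 41.6% of day 0, a 2.4-fold difference. It was lower on day 13 in 25 of 25 animals, and the changes ran from -2.1 in INR BRD animal 40 (189.3 to 44.1 CPM) to -0.19 in INR BRD animal 27 (123.6 to 108.04 CPM). Animal 27 was the only steer whose day 13 level remained above 70% of its day 0 level, and it reached 74.8 CPM on day 28 and 60.4 CPM on day 60. From day 0 to day 60 the change was -1.27 ± 0.41, with 26 of 26 animals lower.

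After day 13 the steps were small and went both ways. From day 13 to day 28 the mean log2 change was 0.0 ± 0.42, with 13 animals lower and 12 higher, and the largest rise was 1.18 in INR BRD animal 40, from 44.1 to 99.7 CPM. From day 28 to day 45 it was 0.11 ± 0.24, with 9 animals lower and 17 higher, and from day 45 to day 60 it was -0.13 ± 0.27, with 18 lower and 8 higher. Each of these means lay within 1 SD of no change, where the SD is the spread between animals and not the error of the mean. Among the 25 animals with all 5 days, the lowest level fell on day 13 in 10, on day 28 in 6, on day 45 in 3 and on day 60 in 6.

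**Figure D2:**
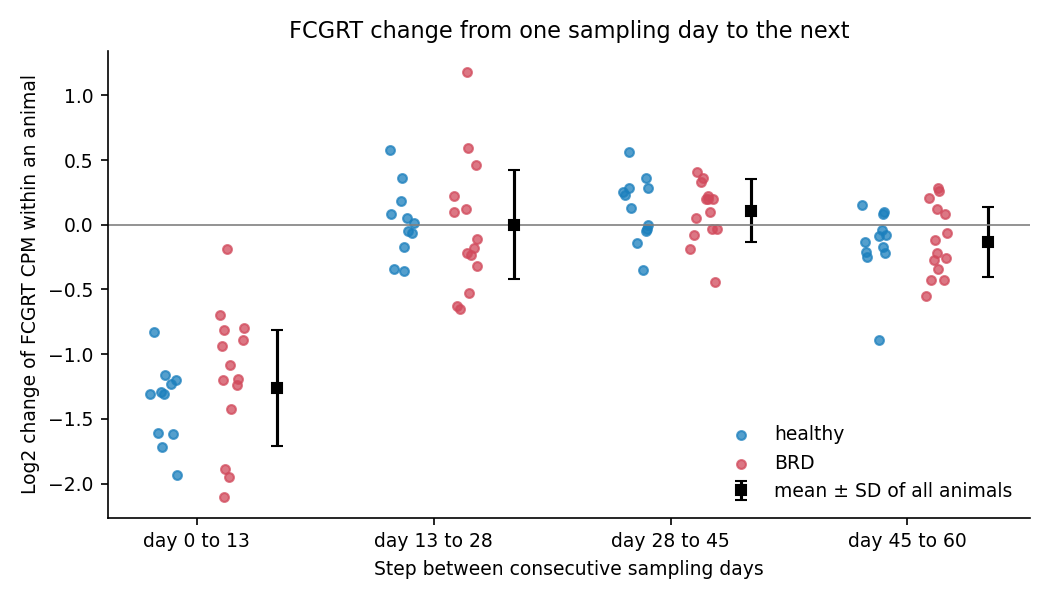
Log2 change of FCGRT CPM within each animal (points; blue, healthy; red, BRD) for the 4 steps between sampling days, with the mean and SD of all animals (squares and bars). All 25 points of the first step lie below 0, from -2.1 to -0.19, and the points of the other 3 steps lie on both sides of 0.

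The day accounted for most of the spread of FCGRT over the whole study, and the animal for the largest share once day 0 was left out. Of the variance of log2 CPM over the 25 animals with all days, 72.2% lay between days, 12.9% between animals and 14.8% in neither. With day 0 left out, 3.48% lay between days and 50.9% between animals. Over days 28, 45 and 60, with 26 animals, these shares were 4.5% and 71%. All are shares of sums of squares. A part between animals would arise without any animal effect, and it grows with fewer days, so the shares of different sets of days are not alike. Over the last 3 days single steers tended to hold their side of the middle, since 8 animals were above the median of all animals on each of the 3 days, and 8 were above it on none.

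The highest means over days 28 to 60 were those of COMBO BRD animal 54 (85.6 CPM) and INR BRD animal 40 (84.6 CPM), whose day 60 library was the one with low RNA integrity, and the lowest were those of INR BRD animal 29 (44.9 CPM) and COMBO healthy animal 3 (47.1 CPM). The place on day 0 was another matter for some of them. Animal 54, first in the later order, was at place 21 of 26 on day 0 with 117.9 CPM, while animal 18 was at place 26 on day 0 and at place 22 later. The 8 animals above the median on all 3 days were 6 of the 14 BRD and 2 of the 12 healthy steers, and the 8 above it on none were 3 BRD and 5 healthy steers.

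BRD and healthy steers overlapped in FCGRT on every day. On day 0 the 14 BRD libraries ran from 79 through a median of 138.4 to 328.9 CPM (mean 150.4 ± 60.1) and the 12 healthy ones from 89.9 through 141.1 to 197.8 CPM (mean 142.5 ± 27.5). On day 13 the BRD libraries ran from 40.4 through 63.5 to 108.04 CPM (mean 65 ± 18, n = 14) and the healthy ones from 40.5 through 54 to 79 CPM (mean 56.8 ± 10.8, n = 11). The healthy animals were more tightly grouped on both days, and neither label was set apart from the other. The log2 differences, BRD minus healthy, were 0.02, 0.17, 0.14, 0.1 and 0.13 from day 0 to day 60 in order of sampling, against pooled SDs between 0.25 and 0.41, so none exceeded the spread between animals. Without animal 21 the day 0 difference was -0.07.

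The day 0 to day 13 change was also similar in size under both labels. It was -1.38 ± 0.31 in log2 CPM in 11 healthy animals and -1.17 ± 0.53 in 14 BRD animals, with the ranges of -1.93 to -0.83 and -2.1 to -0.19 overlapping. Both the largest and the smallest change belonged to BRD animals.

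Within the AAC supplement, however, the mean of the BRD steers was the higher on all 5 days, by more than 1 pooled SD each time with all animals in. On day 0 the BRD animals 9, 21, 31 and 41 had 141.0, 328.9, 199.2 and 145.9 CPM and the healthy animals 34, 46, 48 and 49 had 133.2, 150.1, 89.9 and 138.3 CPM, a log2 difference of 0.61 with a pooled SD of 0.46, or 0.35 with a pooled SD of 0.31 when animal 21 was left out. On day 28 the same BRD animals had 61, 72, 70 and 61 CPM and the healthy ones 46, 55, 53 and 60 CPM, a difference of 0.31 with a pooled SD of 0.15. Day 28 was the only day on which the labels did not overlap, with BRD animal 41 (60.8 CPM) and healthy animal 49 (60.0 CPM) almost level. The differences on days 13, 45 and 60 were 0.42, 0.35 and 0.3. That of day 13 was 0.22 without healthy animal 34, 0.34 without BRD animal 21 and 0.33 without BRD animal 31, each within its pooled SD of 0.29, 0.36 and 0.35. On day 45 the BRD animals had 71, 75, 66 and 76 CPM and the healthy ones 54, 66, 53 and 55 CPM, where healthy animal 46 lay just above BRD animal 31.

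The AAC steers came from first pens 2 and 8, each with 2 BRD and 2 healthy animals, and the difference was present in both pens on 4 of the 5 days. In pen 2 it ran from 0.35 on day 60 to 0.91 on day 0 in log2 CPM. In pen 8 it ran from -0.03 on day 13, where 1 healthy library was left, to 0.32 on day 45. Pens of 2 against 2 animals are too few to judge a difference by.

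The other supplements did not show the same direction throughout. In COMBO, BRD animals 16, 18 and 54 had 149.5, 79 and 117.9 CPM on day 0 and healthy animals 3, 6, 42 and 57 had 133.6, 197.8, 144.1 and 142.5 CPM, a log2 difference of -0.45 with a pooled SD of 0.36. By day 28 the BRD animals had 61, 48 and 88 CPM and the healthy ones 56, 67, 70 and 58 CPM, a difference of 0.02. The BRD animals were thus lower than the healthy ones on days 0 and 13 (-0.13) and slightly higher on days 45 (0.17) and 60 (0.16), and the labels overlapped on each day. All COMBO BRD animals came from pen 6 and all COMBO healthy animals from pen 5, so the disease label cannot be told apart from the pen there.

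In INR the 7 BRD animals ran from 102.96 through 128.8 to 189.3 CPM on day 0 and the healthy animals 7, 10, 30 and 50 had 139.8, 108.8, 162.2 and 169.7 CPM, a log2 difference of -0.11. The later differences were 0.11, 0.14, -0.13 and 0.02, each within 1 pooled SD. Pens 3 and 4 held both labels, with at most 2 BRD and 3 healthy animals, and pen 7 held BRD animals only. INR BRD animals 29 and 43 were the lowest of the group on day 28, both at 42.6 CPM, and animal 40 the highest at 99.7 CPM, so the spread within the INR BRD animals was larger than any difference between the labels. Whether the BRD difference itself varied between supplements was not tested.

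**Figure D3:**
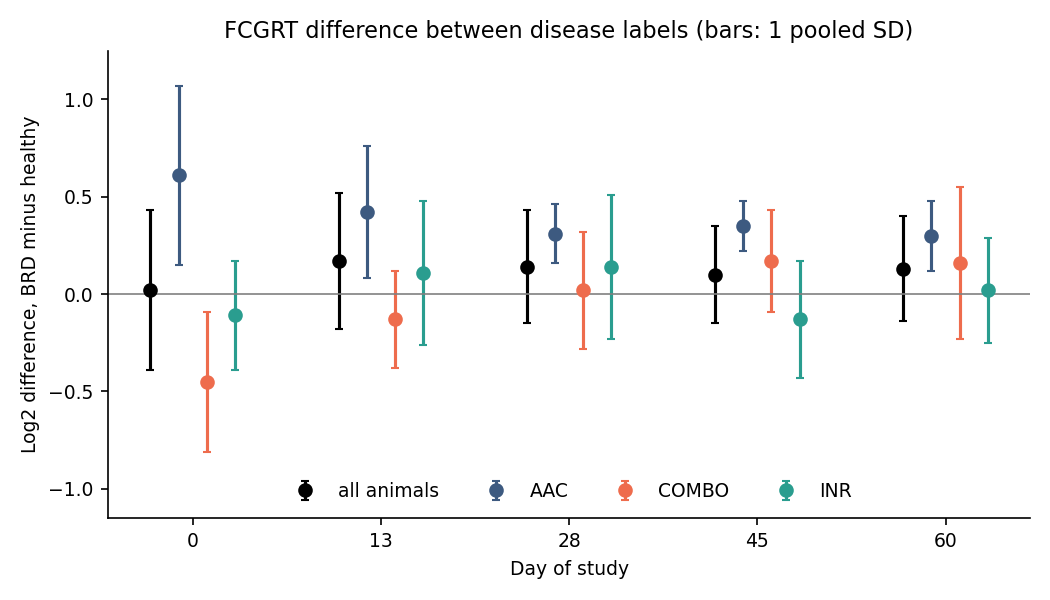
Log2 difference of FCGRT CPM, BRD minus healthy animals (vertical axis, bars of 1 pooled SD between animals), on each day for all animals and within each supplement. The points for all animals lie between 0.02 and 0.17, those of AAC between 0.3 and 0.61, and those of COMBO and INR on both sides of 0.

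The supplements also overlapped on each day. The authors did not take differences on day 0 to represent supplementation, although COMBO steers had been drenched before shipment. On day 0 FCGRT averaged 165.8 ± 72.3 CPM in AAC (89.9 to 328.9, n = 8), 137.7 ± 35.9 in COMBO (79 to 197.8, n = 7) and 138.7 ± 26.9 in INR (102.96 to 189.3, n = 11). On day 13 it averaged 65 ± 17 in AAC (40 to 87, n = 7), 52 ± 8.5 in COMBO (40 to 64, n = 7) and 65 ± 17 in INR (44 to 108.04, n = 11). Without animal 21 the AAC mean on day 0 was 142.51 ± 32.04 CPM (n = 7), close to the others. COMBO was the lowest of the 3 on day 13, yet its range lay inside or next to those of the others. The log2 differences on that day were 0.31 for AAC minus COMBO and -0.31 for COMBO minus INR, inside or level with their pooled SDs of 0.32 and 0.31. Among BRD animals alone, AAC minus COMBO was 0.78 on day 0 and 0.56 on day 13 (pooled SDs 0.53 and 0.34), and among healthy animals it was -0.28 and 0.01 (pooled SDs 0.29 and 0.25), with 3 or 4 animals on each side.

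From day 13 to day 28 FCGRT was higher in 6 of 7 COMBO animals, with a mean log2 change of 0.3 ± 0.27, while it was higher in 2 of 7 AAC animals (-0.08 ± 0.21) and 4 of 11 INR animals (-0.13 ± 0.51). On days 28, 45 and 60 the differences between supplements lay between -0.09 and 0.12. The 3 comparisons share their animals, and first pens were nested in supplements, so the supplements cannot be told apart from the pens.

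The row named for beta-2-microglobulin, the light chain that FcRn needs to leave the endoplasmic reticulum, held few counts here. B2M averaged 7.7 ± 2.19 CPM on day 0 and 9.37 ± 5.63 CPM on day 13, from 51 to 1095 counts per library, and its change did not pass the test (log2 fold change 0.2, SE 0.148, edgeR quasi-likelihood FDR 0.342). The next annotated gene in the RefSeq order of ARS-UCD2.0, the protein-coding LOC783680, looked at after the B2M values were seen, held 117325 to 277950 counts per library and averaged 4782 CPM on day 0 and 4230 CPM on day 13. Whether reads of B2M were counted under that row was not tested, so the B2M values are uncertain.

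The chaperones that fold class I-like heavy chains were abundant and level while FCGRT dropped. Calreticulin (CALR) averaged 457 ± 48.8 CPM on day 0 and 445 ± 81.6 on day 13, calnexin (CANX) 331 ± 26.5 and 328 ± 35.3, and the disulfide isomerase ERp57 (PDIA3) 487 ± 60.25 and 457 ± 64.9. Across all 18937 genes tested, 17.3% rose and 15.9% fell from day 0 to day 13 at an FDR of 0.10 in the edgeR fit with animal as a block. Of the 4 assembly genes 0 passed in edgeR or in DESeq2, with 0 at an unadjusted p below 0.05, beside 7022 of all genes. Their median log2 fold change was -0.02, beside 0.006 over all genes. From day 28 to day 45, when 13.8% of all genes rose and 15% fell, CALR, CANX and PDIA3 rose by 0.16, 0.09 and 0.12 on the log2 scale (edgeR quasi-likelihood FDR 0.023, 0.0374 and 0.0408). From day 45 to day 60, when 5.05% of all genes rose and 3.55% fell, CANX fell by 0.13 (edgeR quasi-likelihood FDR 0.0126).

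The ligands of FcRn were hardly readable in blood RNA. ALB, the albumin gene of the liver, held 0 to 6 counts per library and was left out by the filter. IGHG1, an IgG heavy chain constant region, was listed at 0 in 98 libraries and at 1000 or more counts in 26, so no fold is given for it. IGHG2 and IGHG3 had no row by that name.

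Genes of the endosomal route that FcRn takes changed by far less than FCGRT. All 15 genes of endosomal sorting and recycling passed the filter on low counts. Of these, 8 fell and 2 rose from day 0 to day 13, beside 15.9% and 17.3% of all genes. Their median log2 fold change was -0.12. RAB5A, the early endosome GTPase, fell by 0.14 (SE 0.025, edgeR quasi-likelihood FDR 6.52e-06), from 76.9 ± 5.87 to 69.7 ± 5.67 CPM. RAB5C fell by 0.22 (169 to 144 CPM) and EHD1, an ATPase of endocytic recycling, fell by 0.28 (223 to 183 CPM). RAB11A, the GTPase of recycling endosomes with which FcRn returns to the surface, fell by 0.13 (104.8 to 95.8 CPM).

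The other members of this list fell by like amounts, rose or did not pass. RAB11B, RAB7A, MYO5B and the retromer subunit VPS35 fell as well, by 0.14, 0.1, 0.24 and 0.11. EEA1, the tether of early endosomes, rose by 0.24 (30.2 to 35.7 CPM, edgeR quasi-likelihood FDR 0.00233), and the RAB11 effector RAB11FIP2 rose by 0.32 (48 to 59 CPM). SNX4, RAB4A, RAB5B, RAB11FIP1 and RAB11FIP5 did not pass, with log2 fold changes between -0.13 and 0.24. No change in the list reached 0.35 in size, against -1.26 for FCGRT.

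The proton pump that acidifies endosomes, the condition under which FcRn binds its ligands, moved the same way by a small amount. Of 7 listed V-ATPase genes 6 were tested. From day 0 to day 13, 4 fell and 0 rose, beside 15.9% and 17.3% of all genes, with a median of -0.16. ATP6V0D1 fell by 0.28 (104.1 ± 20.5 to 84.96 ± 12.5 CPM, edgeR quasi-likelihood FDR 6.56e-05), ATP6V1B2 by 0.17, ATP6V1E1 by 0.15 and ATP6V0C by 0.12. ATP6V0A1 held at most 2 counts in a library.

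From day 28 to day 45 FCGRT itself was 0.11 higher in log2 CPM within a spread of 0.24. In that step 13.8% of all genes rose and 15% fell. Of the 15 endosomal genes 8 rose and 1, RAB11FIP2, fell, and 3 of the 6 V-ATPase genes rose. EHD1 rose by 0.35, RAB5A and RAB11A each by 0.16, and ATP6V1B2 by 0.25 (edgeR quasi-likelihood FDR 4.12e-06, 1.74e-06, 1.01e-05 and 2.9e-05). From day 13 to day 28, when 1.19% of all genes rose and 0.776% fell, 0 genes of both lists passed in edgeR or in DESeq2. At an unadjusted p below 0.05 there were 3 endosomal genes, RAB7A, EHD1 and VPS35, beside 2635 of all 18937 genes. From day 45 to day 60, when 5.05% of all genes rose and 3.55% fell, RAB5C, RAB11A and VPS35 fell by 0.19, 0.09 and 0.11. ATP6V1A and ATP6V1B2 fell by 0.15 and 0.19.

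Other Fc receptors moved both ways. Of 21 listed, 20 had a row and 19 were tested, and between day 0 and day 13 there were 4 that fell and 3 that rose, shares close to the 15.9% and 17.3% of all genes, with a median of -0.09. FCGR1A, the high-affinity IgG receptor of myeloid cells, fell by 1.04 (SE 0.241, edgeR quasi-likelihood FDR 0.000596) at a low level, from 1.07 ± 0.885 to 0.596 ± 0.842 CPM. FCRL6 fell by 1.09 (1.7 to 0.83 CPM), FCAR, the IgA receptor, by 0.65 (1.82 to 1.15 CPM), and FCMR, the IgM receptor, by 0.14 (232 to 199 CPM). FCRL6 was back at 2.2 CPM on day 28, a rise of 1.47, which FCGRT did not show.

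The Fc receptor genes that rose were FCER1A, MS4A2 and the low-affinity IgG receptor FCGR3A. FCER1A and MS4A2, subunits of the high-affinity IgE receptor of basophils and mast cells, rose by 0.95 (4.07 to 7.56 CPM) and 0.85 (5.81 to 9.99 CPM), and FCGR3A rose by 0.63 (166 ± 67.5 to 255 ± 102.4 CPM; edgeR quasi-likelihood FDR 7.51e-11, 1.85e-05 and 0.000118). FCGR3A was higher on day 13 in 23 of 25 animals, the reverse of FCGRT. The other IgE receptor genes, FCER2, the low-affinity receptor of B cells, and FCER1G, the shared gamma chain, had log2 fold changes of 0.1 and -0.08 that did not pass. FCGR2B, the inhibitory IgG receptor, TRIM21, the cytosolic IgG receptor, and PIGR, which carries IgA and IgM across epithelia, had log2 fold changes of 0.12, -0.09 and -0.12 that did not pass. From day 13 to day 28, 1 of the 19 rose, FCRL6, and 1 fell, MS4A2, by 0.75, beside 1.19% and 0.776% of all genes. From day 28 to day 45, 3 of the 19 rose and 0 fell, beside 13.8% and 15% of all genes. FCGR2B, FCMR and FCRL5 rose in that step, by 0.37, 0.15 and 0.22, and their share of the list was close to that of all genes.

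Among 8 tested class I-like heavy chains, the family to which FCGRT belongs, HFE was the one that fell from day 0 to day 13 in edgeR, by 0.49 (5.01 ± 1.13 to 3.82 ± 1.81 CPM, edgeR quasi-likelihood FDR 1.75e-05), and 0 rose. Of all genes 15.9% fell and 17.3% rose in that step. DESeq2 called CD1A as well, a lipid-presenting chain that edgeR put at -0.51 without a call. HFE, the partner of the transferrin receptor, was lower in 21 of 25 animals and averaged 3.14 CPM on day 60. JSP.1, a classical class I heavy chain, was near 3848 CPM on day 0 and 3579 CPM on day 13, and MR1, which presents vitamin B metabolites, went from 35 to 33 CPM, both without passing. The median of the family was -0.15. Later on CD1B5 was the 1 of the 8 that passed from day 13 to day 28. It rose by 1.08 at less than 1 CPM, beside 1.19% of all genes that rose. From day 28 to day 45, 2 of the 8 rose and 1 fell, beside 13.8% and 15% of all genes. JSP.1 and CD1E rose by 0.14 and 0.28 while BOLA-NC1, a nonclassical class I chain, fell by 0.51.

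**Figure D4:**
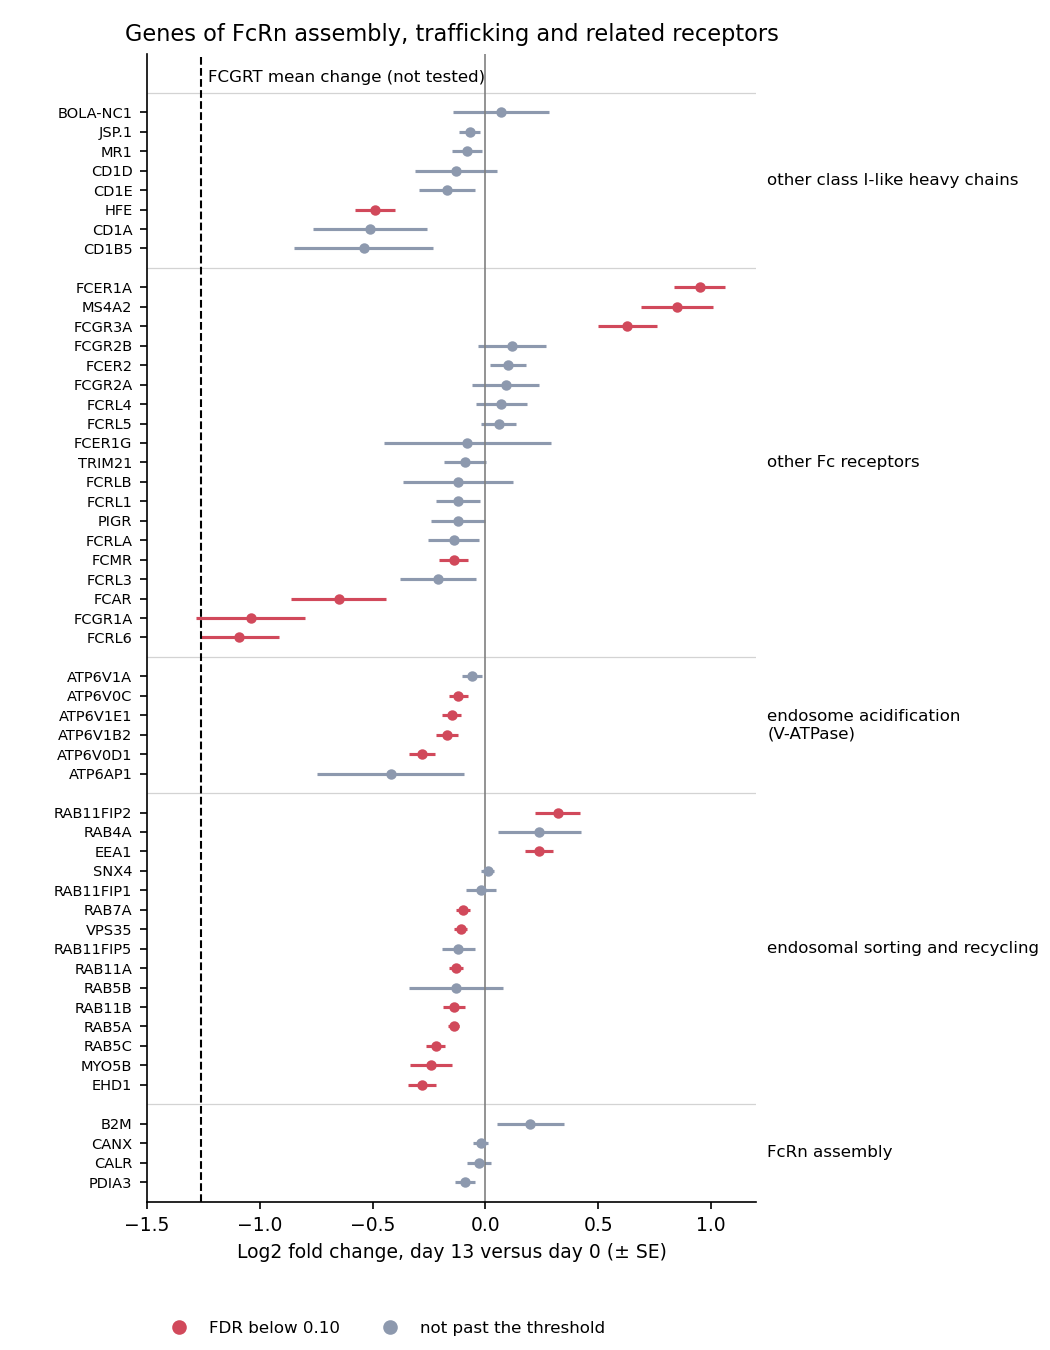
Log2 fold change between day 13 and day 0 (horizontal axis, bars of 1 SE) of the tested genes of FcRn assembly, endosomal sorting, acidification, other Fc receptors and class I-like heavy chains; red points passed an FDR of 0.10. The dashed line marks the mean change of FCGRT, -1.26, which was not tested; every point lies to its right, the lowest being FCRL6 at -1.09.

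The neighbours RCN3 and NOSIP did not share the drop of FCGRT. In the RefSeq gene order of ARS-UCD2.0 it lies between MIR150 and RCN3, and neither MIR150 nor the lncRNA LOC132342713 had a row by that name. RCN3, a calcium-binding protein of the secretory pathway, averaged 14.7 CPM on day 0 and 15.7 on day 13 (log2 fold change 0.11, edgeR quasi-likelihood FDR 0.305), and NOSIP went from 67.2 to 64.6 CPM (-0.06, FDR 0.292).

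Among all genes, FCGRT stood near the lower end of the day 13 against day 0 changes. Its fitted log2 fold change of -1.25 lay among the lowest 0.539% of the 18937 genes, and at place 14 from the lowest of the 9649 genes with a mean of at least 10 CPM. For BRD against healthy its fitted values stood between 63.6% and 81.9% of the way up the genes on the 5 days.

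The genes whose log2 CPM was most like that of FCGRT over the libraries of all animals and days were chosen from 13694 genes with a mean of at least 1 CPM by Pearson's r, given here as a description. Libraries of the same animal and of the same day share much, so these are not independent points. The highest r was 0.9, for CPT1A, the enzyme that admits long-chain fatty acids to mitochondria, followed by the transcription factor gene KLF11 (0.874), PDK4, a kinase that inhibits pyruvate dehydrogenase (0.87), and SLC25A20, the carnitine-acylcarnitine carrier (0.869). Next came AP2A1, a subunit of the clathrin adaptor AP-2 (0.82), LOC514978 (0.809), C18H19orf12 (0.768), the ribonuclease RNASE6 (0.759), the heme-binding HEBP1 (0.758) and KLF10 (0.757). In all, 26 genes had an r of at least 0.7 and 3 of at most -0.7, beside a median of 0.009.

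CPT1A averaged 200.5 ± 61.6 CPM on day 0 and 65.6 ± 17.3 on day 13 and stayed between 58.6 and 62.6 CPM after that, and it was lower on day 13 in 25 of 25 animals. PDK4 went from 110 ± 56.5 to 18.3 ± 9.37 CPM, KLF11 from 39.1 ± 9.24 to 10.1 ± 3.51 and SLC25A20 from 45.5 ± 6.92 to 22.55 ± 4.28, each lower in 25 of 25 animals. FCGRT was thus not the steepest of them: on day 13 its mean was 41.9% of day 0, beside 32.7% for CPT1A, 25.9% for KLF11, 16.6% for PDK4 and 49.6% for SLC25A20. None of the 5 returned toward its day 0 level by day 60.

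Much of this likeness lay in the step between day 0 and the rest. With the mean of each day taken away, r was 0.634 for CPT1A, 0.559 for KLF11, 0.531 for PDK4 and 0.54 for SLC25A20, and AP2A1 kept an r of 0.746. Other genes were then closest to FCGRT, led by PLP2 and KDELR1 at 0.798, S100A4 at 0.788, PRELID1 at 0.782 and the V-ATPase subunit ATP6V0D1 at 0.78, which had been at place 14 before. CPT1A, PDK4, ZDHHC3, LOC101905776, LOC104971307 and LOC514978 are the genes the study listed beside FCGRT. It listed them as stabilized after a breakpoint over time in both AAC and COMBO, in healthy cattle only. Their median fitted log2 difference between day 13 and day 0 was -1.7, given as a description, since that list was chosen on libraries of this series. In healthy INR animals FCGRT changed by -1.24 ± 0.32 in log2 CPM over that step (n = 4).

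The genes most opposite to FCGRT were BIRC3, an inhibitor of apoptosis (r = -0.776), SCD, the stearoyl-CoA desaturase of fatty acid synthesis (-0.761), PPIG (-0.736), PMVK, a kinase of the mevalonate pathway (-0.699), and TP53BP1 (-0.679). SCD averaged 30.8 ± 6.53 CPM on day 0 and 63.5 ± 11.8 on day 13 and was higher in 25 of 25 animals. BIRC3 went from 376 ± 83.6 to 497 ± 74.6 CPM and was higher in 22 of 25.

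**Figure D5:**
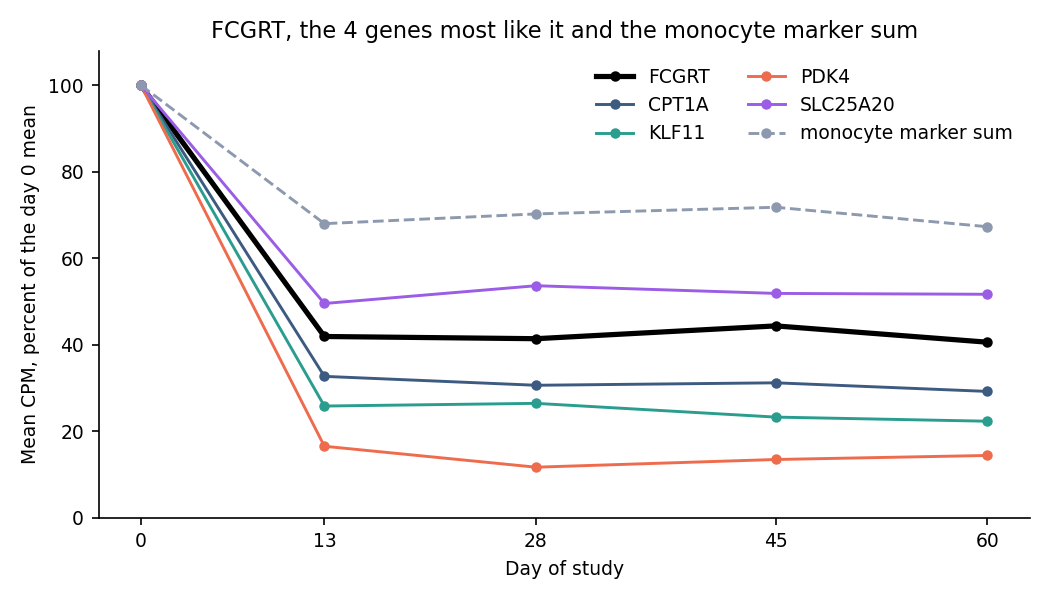
Mean CPM on each day as a percentage of the day 0 mean (vertical axis) for FCGRT, the 4 genes with the highest Pearson's r to it and the sum of 8 monocyte markers (dashed). FCGRT lies at 41.9% on day 13 and 40.6% on day 60, below the monocyte sum at 68% and 67% and above CPT1A, KLF11 and PDK4. The monocyte sum joins markers that fell by day 13 with others that did not.

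Blood cell markers moved between day 0 and day 13 as well, and bulk blood RNA does not show which cells carried FCGRT. The summed level of 8 monocyte markers ran from 680.5 through a median of 1362 to 3112 CPM on day 0 and from 720.3 through 961.6 to 1587 CPM on day 13, a log2 change of -0.52 ± 0.46 within animals, with 21 of 25 lower. CD163, a scavenger receptor, fell by 1.76, CD14 and VCAN each by 1.19, and CCR2 by 0.4, whereas CX3CR1 rose by 0.54 and CSF1R and CD68 did not pass (-0.17 for each). Relative to the monocyte sum, FCGRT was lower on day 13, by -0.74 ± 0.48 in log2, in 22 of 25 animals. That value depends on which markers are summed. CD163 fell by more than FCGRT, and CD14 and VCAN by nearly as much, while CX3CR1 rose.

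The neutrophil sum, 5 of 6 markers with a row, changed by -0.67 ± 0.71 and the dendritic cell sum by -0.26 ± 0.36, from 10.1 ± 2.66 to 8.49 ± 1.91 CPM, with CLEC9A at 0 in 16 libraries and CLEC10A in 2. FCGRT relative to the dendritic cell sum was lower in 25 of 25 animals, by -1.01 ± 0.46. Relative to the neutrophil sum it was lower in 23 of 25, by -0.6 ± 0.84. The neutrophil value too depends on which markers are summed. On day 0 S100A9 averaged 654.8 CPM and S100A8 269.9 CPM, beside 1171.6 CPM for the sum. Both were lower on day 13 in 21 of 25 animals, CXCR1 in 16 and CXCR2 in 17, while MMP9 was lower in 11 and higher in 14. The sums of B cell and T cell markers changed by 0.07 ± 0.34 and -0.07 ± 0.35, that of eosinophil markers, 3 of 4 with a row, by -0.06 ± 0.79, and that of NK cell markers, 2 of 3 with a row, by -0.36 ± 0.3.

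Markers of the other cells that blood can carry went up. The erythroid sum rose in 25 of 25 animals, by 3.57 ± 1.88 in log2, from between 19.1 and 2559 CPM on day 0 to between 128.46 and 27888 CPM on day 13, the platelet sum changed by 0.33 ± 0.4, and the endothelial sum, at 2.98 ± 0.926 and 4.42 ± 1.98 CPM, by 0.5 ± 0.41. The part of these cell markers in the FCGRT change was not tested. Over all libraries the r of FCGRT was 0.602 with the monocyte sum, 0.556 with the neutrophil sum, 0.496 with the dendritic cell sum and -0.317 with the B cell sum, and with day means taken away these were 0.487, 0.259, 0.434 and -0.403. The NK cell and T cell sums had an r of 0.431 and 0.273, or 0.42 and 0.413 with day means taken away, much as the dendritic cell sum. The erythroid sum went from -0.275 to 0.35, the endothelial sum from -0.452 to -0.276, the platelet sum from -0.272 to -0.058 and the eosinophil sum from -0.026 to 0.153.

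Genes of the FcRn lists gave no call between BRD and healthy animals. Of the 53 tested genes of the 6 lists, 0 passed an FDR of 0.10 on any of the 5 days in the edgeR fit with 30 group means, where 0.0158% of all genes passed on day 0, 0.0% on days 13 and 45, and 0.00528% on days 28 and 60. At an unadjusted p below 0.05 there were 6, 4, 6, 5 and 2 of them on the 5 days in order. Over all 18937 genes there were 1347, 716, 1635, 800 and 689. DESeq2 called 1 of the 53, on day 45, beside 31 of all 18937 genes on that day.

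Between supplements, 3 of the 53 genes passed, all higher in AAC than in COMBO on day 13, when 0.929% of all genes passed and 0.449% were higher in AAC. RAB5A was higher by 0.2 (SE 0.054), RAB11A by 0.27 (SE 0.071) and VPS35 by 0.22 (SE 0.062) on the log2 scale, with edgeR quasi-likelihood FDR of 0.0731, 0.0739 and 0.0925. On that day FCGRT was 0.31 higher in AAC than in COMBO in log2 CPM, inside its pooled SD of 0.32. These calls rested on single animals: leaving out 1 animal in turn gave between 0 and 5 of them, with 0 left when AAC animal 9, 31, 34 or 46 or COMBO animal 18, 42 or 54 was left out.

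On the other days 0 of the 53 passed between AAC and COMBO in edgeR, beside 0.565% of all genes on day 0, 0.0317% on day 28 and 0.0% on days 45 and 60. At an unadjusted p below 0.05 there were 8, 2, 3 and 2 of them on these days. Over all 18937 genes there were 2010, 1163, 711 and 764. Between AAC and INR 0 passed, beside 0.0422% of all genes on day 13, 0.0106% on day 28 and 0.0% on the other days. At an unadjusted p below 0.05 there were 4 to 8 of the 53 a day, beside 784 to 1954 of all genes. Between COMBO and INR 0 passed, beside 0.0% on days 0 to 45 and 0.00528% on day 60. At an unadjusted p below 0.05 there were 1 to 7 of the 53 a day, beside 936 to 1250 of all genes. Over the 5 days DESeq2 called 6 of the 53 for AAC against COMBO and 1 for each of the other pairs of supplements. Summed over the same days it called 1045 of all genes for AAC against COMBO, 205 for AAC against INR and 284 for COMBO against INR.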

How the data were processed

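The authors sequenced stranded mRNA libraries of whole blood on an Illumina NovaSeq. The submitters' processing notes name FastQC 0.11.9, Trimmomatic 0.39, HISAT2 2.1.1, StringTie 2.2.0 and edgeR 3.36.0. The deposited table holds counts per gene, made by the authors by trimming the reads, aligning to bovine assembly ARS-UCD1.3 and converting StringTie coverage to whole-number counts, so genes that share sequence or overlap can trade reads. These raw counts were used as deposited: 32395 genes, 31613545 to 61692136 counts per library, with no pair of libraries identical. Per the labels each library belongs to 1 animal, 1 sampling day, 1 supplement and 1 disease label, and the same animal numbers recur on each day, so the libraries of an animal are paired.

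FCGRT was described from CPM scaled by TMM factors (0.906 to 1.092) and log2 CPM with a prior count of 2. Differences between groups are set beside the SD between animals, and no test is reported for FCGRT or, unless they are on an FcRn list, for the genes chosen for their likeness to it. Other genes were tested in edgeR 4.0.16 (R 4.3.3) by quasi-likelihood F-tests with a common dispersion over the 18937 genes that passed filterByExpr, at a Benjamini-Hochberg FDR of 0.10. Steps between days were fitted with animal as a block, and disease labels and supplements with 30 group means. DESeq2 1.42.0, RLE factors, other filters, an FDR of 0.05, a trended dispersion, single-day fits, fits without the block, without the library of low RNA integrity and without each animal in turn were the alternatives. The fits were first run on simulated data with log2 changes of 1, larger than those of the supplement calls. The simulation for the group means held no animal effect, so it does not cover animals sampled on several days.

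The genes named are FCGRT, the listed genes that passed or that make up a step of the receptor's route, its neighbours, and the 10 genes most like and 5 most opposite to it by Pearson's r. FCGRT and all lists were chosen with earlier results of these data known. Python 3.11.15 with numpy 2.4.6, pandas 2.3.3 and matplotlib 3.10.9 gave the descriptions and plots. RefSeq gene order of ARS-UCD2.0 was used for neighbours only. The results of 1 monocyte marker and 1 neighbouring gene are not reported here.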

Additional observations from a re-analysis of the deposited data

Results flagged for a closer look

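Among 42 groups of 4 to 7 animals examined over the days and steps, 4 held an animal whose FCGRT stood far from the rest of its group. The groups share animals across days and steps, so they are not independent. Some such gaps arise by chance, and the count is a description that carries no test. COMBO healthy animal 6 was the highest of its group on day 0 with 197.8 CPM, its gap to the next animal being 0.837 of the range of the group. AAC healthy animal 46 was the highest of its group on day 45 with 66.2 CPM (0.862 of the range). INR BRD animal 27 was the highest of 7 on day 13 with 108.04 CPM (0.643 of the range), the one steer whose FCGRT had hardly fallen by then. INR BRD animal 40 had the highest log2 change from day 13 to day 28, at 1.18 (0.579 of the range), after the largest fall of all animals. Whether anything in the history of these steers goes with these values was not tested.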

How the results depend on the processing

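The 12 differences of FCGRT moved by less than the SD between animals with CPM from plain totals, RLE factors, a prior count of 0.5, medians and without the low-integrity library. Except for day 13 minus day 0, that SD exceeds the difference itself. A change of sign could thus stay below it, and for those differences the check says little. With each animal left out the day 13 minus day 0 change ran from -1.31 to -1.23, and BRD minus healthy on day 0 from -0.07 without animal 21 to 0.09 without animal 18. With no replicate block, all genes called fell from 6289 to 3995 for day 13 against day 0, to 31 (from 372) for day 28 against 13, to 2601 (from 5452) for day 45 against 28 and to 314 (from 1629) for day 60 against 45, and FcRn-list genes to 1, 9 and 2 for the last 3 steps (from 3, 21 and 6). At an FDR of 0.05, 159, 955, 0, 46, 6 and 0 genes were called for day 28 against 13, day 60 against 45, BRD at day 0, AAC against COMBO, AAC against INR and COMBO against INR over 5 days, and 0 FcRn-list genes for AAC against COMBO. DESeq2 called 598 for day 28 against 13, 98, 36, 40, 31 and 30 for BRD on the 5 days in order, and 1045, 205 and 284 for the supplements, with FcRn-list counts of 1 for BRD at day 45 and of 6, 1 and 1 for the supplements (from 289, 10 and 1, and 3, 0 and 0). The stricter filter gave 10 for BRD at day 0, 4 for AAC against INR and 7 for COMBO against INR. Dropping the low-integrity library gave 10, 0 and 7 for BRD at days 0 and 60 and COMBO against INR. Single-day fits gave 0 for BRD at days 0, 28 and 60, 1 and 0 for AAC against COMBO and INR, and 0 FcRn-list genes. No filter gave 1.1e+02 (to 2 digits), 6 and 0 for the supplements and 0 FcRn-list genes for AAC against COMBO, RLE factors 7 and a trended dispersion 0 for COMBO against INR. Leaving out each animal gave 217 (without 16) to 514 (without 43) for day 28 against 13, 0 to 317 (without 16), 0 to 12, 0 to 11, 0 to 1 and 0 to 2 for BRD by day, 14 (without 46) to 1282 (without 16), 4 to 32 and 0 to 404 (without 16) for the supplements, and FcRn-list counts of 2 to 4 and 5 to 9 for day 28 against 13 and day 60 against 45, 0 to 1 (without 16) for BRD at day 0, and 0 to 5 and 0 to 2 for AAC and COMBO against COMBO and INR. The causes were not tested. Likeness to FCGRT moved for 8 of 15 genes with day means taken away and 8 without day 0. The common dispersion was a BCV of 28.4% within animals and 39% between them, beside a counting error of 2.54% at the lowest FCGRT count.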
